A study of Homo sapiens with 5 samples.

Results

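The genes described here are 9 genes of the differentiated, luminal layers of the urothelium: the uroplakin genes UPK1A, UPK1B, UPK2, UPK3A and UPK3B and the transcription factor genes PPARG, ELF3, KLF5 and GRHL3. They were taken by name as a list of known urothelial genes, not by a threshold on these data, but with earlier results of these data known. They are 9 of 19974 protein-coding gene records of RefSeq on the autosomes and the X chromosome. HT1376, an established human bladder carcinoma cell line, was given either the vehicle DMSO or 250 nM of CPI-0209, an inhibitor of EZH2, over 8 days. Formaldehyde-fixed chromatin was then precipitated with an antibody against EZH2 or against H3K27me3 and sequenced (ChIP-seq), which gave 4 groups: H3K27me3 DMSO, H3K27me3 CPI-0209, EZH2 DMSO and EZH2 CPI-0209. Each group is 1 library of 1 cell line, so no difference between DMSO and CPI-0209 has a replicate check and no test between them was possible. The treatment label gives 8 days, while the extraction text also names 4 days and an antibody against H3K27ac; no such samples were analysed here. The fifth sample of the series, an input labelled for both conditions, was not used here. RNA and protein were not measured, so these data cannot show whether the genes were expressed or whether the cells carried luminal markers.

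Uroplakins are the membrane proteins of the plaques that make the bladder surface tight. UPK1A and UPK1B are tetraspanins, UPK1A pairs with UPK2, and UPK1B pairs with UPK3A or UPK3B. PPARG is a lipid-sensing nuclear receptor that drives urothelial differentiation, and ELF3, KLF5 and GRHL3 are epithelial factors of the ETS, Krüppel-like and grainyhead families that take part in the same programme. Polycomb repressive complex 2 uses its enzyme EZH2 to trimethylate lysine 27 of histone H3, and this mark, H3K27me3, is a hallmark of silenced genes.

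The measurement at each gene is the deposited list of called intervals, in hg38 coordinates and without scores or read counts. A gene window is the RefSeq record with 2 kb on either side, a gene counts as called with at least 1 bp of an interval in its window, and coverage is the percent of the window under merged intervals. Over the whole genome the merged intervals measured 315.1 Mb for H3K27me3 DMSO, 113.8 Mb for H3K27me3 CPI-0209, 193.4 Mb for EZH2 DMSO and 226.3 Mb for EZH2 CPI-0209. Sequencing depth is unknown. A list from a shallower or noisier library also holds fewer and narrower calls, and the part of depth in the differences below was not tested. A missing call does not show that the mark or the protein was absent. Nor does a call alone show binding, since the lists carry no scores and use of the input as a control is not stated.

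H3K27me3 was called at 3 of the 9 genes in DMSO cells, UPK1A, UPK2 and GRHL3, and at 1 in CPI-0209 cells, UPK1A. Among all protein-coding genes 34.2% were called in DMSO and 24.5% in CPI-0209, so the share of these genes in DMSO lay close to the background. EZH2 was called at 6 of the 9 in DMSO, namely UPK1A, UPK1B, PPARG, ELF3, KLF5 and GRHL3, against 58.8% of all protein-coding genes. In CPI-0209 cells it was called at 8 of the 9, all except UPK1B, against 75.1%. Of the 3 genes with H3K27me3 in DMSO, 2 had no call in CPI-0209, and of all protein-coding genes with H3K27me3 in DMSO 29.8% had none. None of the 9 had H3K27me3 in CPI-0209 alone, a class of 0.511% of protein-coding genes. EZH2 without H3K27me3 in DMSO was found at 4 of the 9 (UPK1B, PPARG, ELF3 and KLF5), against 32.6% of protein-coding genes. Of the 6 genes with EZH2 in DMSO these 4 thus lacked the mark, against 55.4% of all genes with EZH2 in DMSO. Coverage by EZH2 had a median of 14.7% over the 9 windows in DMSO and 32.4% in CPI-0209, beside medians of 3.71% and 6.97% over all protein-coding genes. The means lay closer together, at 26.2% and 35.6% over the 9 windows beside 19.2% and 23.7% over all protein-coding genes. Coverage by H3K27me3 had a median of 0% over the 9 genes and over all protein-coding genes in both conditions.

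**Figure D1:**
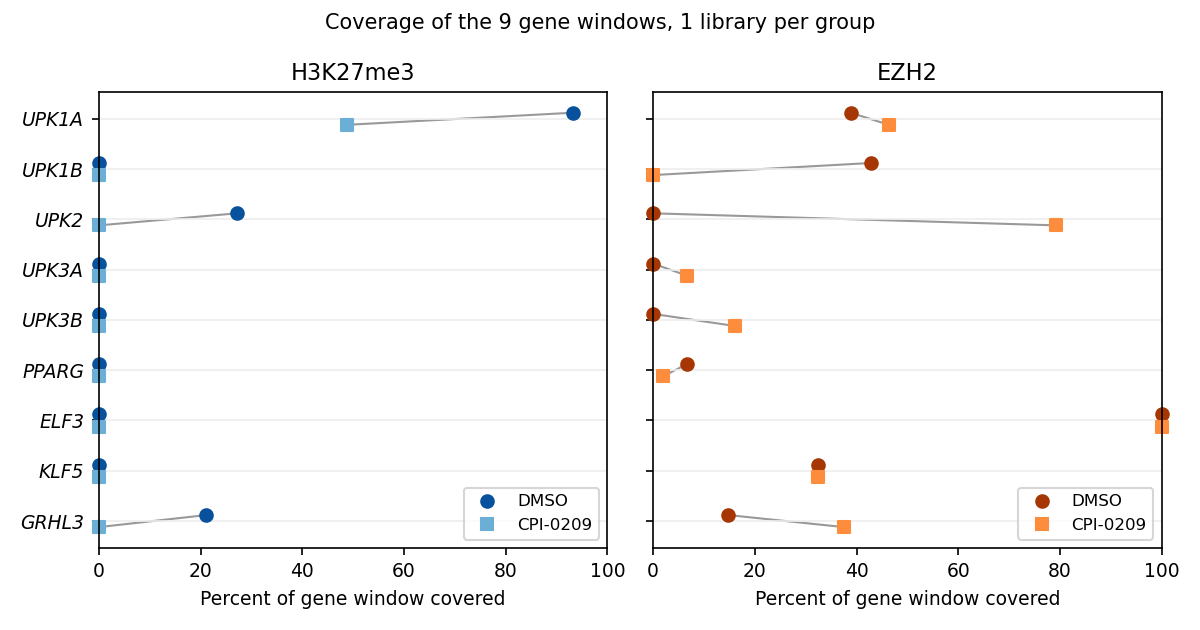
Percent of each gene window (RefSeq record with 2 kb on either side) covered by called intervals, for H3K27me3 on the left and EZH2 on the right; circles are DMSO, squares CPI-0209, and each point is 1 library. H3K27me3 coverage was above 0 at UPK1A, UPK2 and GRHL3 in DMSO and at UPK1A alone in CPI-0209, while EZH2 coverage reached 100% at ELF3 in both conditions and 0% at UPK1B in CPI-0209.

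The sequence at the gene starts is shown for 5 starts, 1 for each kind of call met at these genes. RefSeq promoter windows of the GRCh38.p14 assembly, 250 bases before a start and 50 from the start on, were found for 7 of the 9 genes, with 14 starts in all, every one on the plus strand; UPK2 and UPK3A had no entry. Every CG dinucleotide is in capitals, since CG-rich promoters are a known place of Polycomb binding in mammals. The first start carried H3K27me3 in DMSO, the next had EZH2 in DMSO alone, the third had EZH2 in CPI-0209 alone, the fourth had EZH2 in both conditions without H3K27me3, and the last had H3K27me3 in DMSO alone and EZH2 in both.
UPK1A, chr19:35666267-35666566, plus strand: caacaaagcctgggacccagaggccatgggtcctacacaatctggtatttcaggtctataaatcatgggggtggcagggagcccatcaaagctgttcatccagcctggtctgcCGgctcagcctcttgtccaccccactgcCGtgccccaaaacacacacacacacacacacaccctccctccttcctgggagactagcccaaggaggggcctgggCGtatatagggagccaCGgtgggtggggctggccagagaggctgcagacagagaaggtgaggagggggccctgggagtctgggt
UPK1B, chr3:119173348-119173647, plus strand: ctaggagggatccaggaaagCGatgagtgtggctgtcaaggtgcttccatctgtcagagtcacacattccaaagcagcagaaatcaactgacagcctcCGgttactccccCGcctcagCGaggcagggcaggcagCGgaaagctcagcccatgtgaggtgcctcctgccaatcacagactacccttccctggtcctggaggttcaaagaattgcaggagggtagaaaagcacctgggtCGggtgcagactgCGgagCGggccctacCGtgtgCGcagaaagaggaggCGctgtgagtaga
UPK3B, chr7:76510302-76510601, plus strand: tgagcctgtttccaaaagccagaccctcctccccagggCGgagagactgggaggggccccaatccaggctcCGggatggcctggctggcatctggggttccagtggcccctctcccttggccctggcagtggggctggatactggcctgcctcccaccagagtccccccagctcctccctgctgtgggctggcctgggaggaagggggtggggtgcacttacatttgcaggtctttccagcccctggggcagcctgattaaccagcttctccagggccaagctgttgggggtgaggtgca
KLF5, inner start, chr13:73058755-73059054, plus strand: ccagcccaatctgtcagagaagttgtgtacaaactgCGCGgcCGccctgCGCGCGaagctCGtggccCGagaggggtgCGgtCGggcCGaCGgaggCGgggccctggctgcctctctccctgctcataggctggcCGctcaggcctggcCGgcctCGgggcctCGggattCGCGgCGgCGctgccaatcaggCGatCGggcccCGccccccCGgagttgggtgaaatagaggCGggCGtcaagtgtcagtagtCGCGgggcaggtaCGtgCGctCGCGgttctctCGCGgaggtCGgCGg
GRHL3, inner start, chr1:24322790-24323089, plus strand: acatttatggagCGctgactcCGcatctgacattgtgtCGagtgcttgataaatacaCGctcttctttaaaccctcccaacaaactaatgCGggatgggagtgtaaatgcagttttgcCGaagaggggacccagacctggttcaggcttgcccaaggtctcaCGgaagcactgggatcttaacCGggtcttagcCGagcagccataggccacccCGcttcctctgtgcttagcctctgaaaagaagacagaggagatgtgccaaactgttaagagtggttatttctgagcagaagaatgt
The UPK1A window holds 4 CG, UPK1B 11, UPK3B 2, the inner KLF5 start 37 and the inner GRHL3 start 10. Over 22132 starts of protein-coding genes the median was 21, and 13 of the 14 starts of these genes lay below it.

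UPK1A (gene 11045, chromosome 19, 35666517 to 35678481) was the only one of the 9 genes with H3K27me3 in both conditions. In DMSO a domain of 16.0 kb (35665601 to 35681600), made of 2 overlapping intervals, covered 93.2% of the window and the whole record. It reached from 916 bp before the start to 3119 bp past the record's end, and 7.54% of protein-coding genes were covered to at least the same degree. In CPI-0209 cells 2 pieces of 5.80 kb (35667801 to 35673600) and 2.0 kb (35675801 to 35677800) covered 48.9% of the window, both inside the DMSO domain. The start itself was inside the DMSO domain and outside the CPI-0209 pieces, the first of which began 1284 bp into the gene. EZH2 lay in the middle and distal part of the gene in DMSO (35671601 to 35677800, 6.20 kb, 38.8% of the window). In CPI-0209 it was called in 2 pieces of 4.40 kb and 3.0 kb (46.4%), which began 3084 bp and 8884 bp from the start. Neither EZH2 list reached within 2 kb of the start. The EZH2 interval in DMSO lay wholly under H3K27me3 and made up 41.7% of its length in the window. In CPI-0209 76.9% of the H3K27me3 length lay under EZH2, against 94.1% over the windows of all protein-coding genes with H3K27me3 in CPI-0209. The DMSO domain ended before both neighbours. COX6B1, a subunit of cytochrome c oxidase 7.74 kb below, had no call in any of the 4 lists, and ZBTB32, a zinc finger repressor 26.1 kb above, lay under separate H3K27me3 intervals over 75.2% of its window in DMSO and 24.3% in CPI-0209.

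UPK1B (gene 7348, chromosome 3, 119173598 to 119205143), the other tetraspanin, had no H3K27me3 call in either condition, and the nearest intervals were 136.2 kb (DMSO) and 137.6 kb (CPI-0209) away. EZH2 was called over its start and first part in DMSO, in intervals of 10.2 kb (119170601 to 119180800) and 6.0 kb (119181601 to 119187600) that covered 42.8% of the window. The 2 kb on each side of the start were covered completely. In CPI-0209 cells no EZH2 interval touched the window, and the nearest was 34.9 kb from the record and 2.80 kb wide. UPK1B was thus the single gene of the 9 with EZH2 called in DMSO and not in CPI-0209, a class of 2.47% of protein-coding genes. With 100 kb on either side of the record, EZH2 covered 35.0 kb (DMSO) and 9.60 kb (CPI-0209).

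UPK2 (gene 7379, chromosome 11, 118956298 to 118958559) had an H3K27me3 interval of 5.40 kb (118950601 to 118956000) beside the gene in DMSO and none in CPI-0209. The interval ended 298 bp below the record and covered 27.2% of the window but none of the record, so the call rests on the 2 kb flank. In CPI-0209 cells the nearest H3K27me3 was 178.6 kb away. EZH2 showed the reverse order. It was not called within 23.7 kb of the record in DMSO, and in CPI-0209 an interval of 5.20 kb (118955601 to 118960800) covered the whole record and 79.2% of the window. The DMSO H3K27me3 interval and the CPI-0209 EZH2 interval overlapped by 400 bp. H3K27me3 called in DMSO alone together with EZH2 called in CPI-0209 alone was found at 2.83% of protein-coding genes. Of the neighbouring genes, BCL9L, a coactivator of Wnt signalling, had EZH2 over 83.2% of its window in DMSO and 80.3% in CPI-0209 without H3K27me3, and FOXR1 had no call in the 4 lists.

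UPK3A (gene 7380, chromosome 22, 45284949 to 45295874) and UPK3B (gene 105375355, chromosome 7, 76510552 to 76516522) had no H3K27me3 call in either condition. The nearest H3K27me3 interval in DMSO was 155.9 kb from UPK3A and 222.4 kb from UPK3B. Both genes lacked EZH2 in DMSO, with the nearest interval 43.5 kb and 128.8 kb away. In CPI-0209 each had 1 narrow EZH2 interval at the lower end of its record. At UPK3A it measured 1.00 kb (45284401 to 45285400, 6.70% of the window), and at UPK3B 1.60 kb (76509401 to 76511000, 16.0%), from 1151 bp before the start to 448 bp past it. With UPK2 this made 3 of the 9 genes with EZH2 in CPI-0209 alone, against 18.8% of protein-coding genes. The CPI-0209 EZH2 list was also shortened to the DMSO length by keeping its widest intervals (those of 4.2 kb or wider). The calls at UPK3A and UPK3B were then gone and the call at UPK2 was still there. This follows from their widths, since of these only the UPK2 interval, at 5.20 kb, is above the limit. The call at PPARG, 3.0 kb wide, was gone as well. UPK3BL1, a copy of UPK3B elsewhere on chromosome 7, had no interval in the 4 lists. How reads from such copies were placed was not stated. No stretch of 31 bases of the UPK3B promoter window recurred in the promoter window of another protein-coding gene with a promoter entry. The rest of the interval and the rest of the genome were not searched, so this cannot show how reads were placed.

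**Figure D2:**
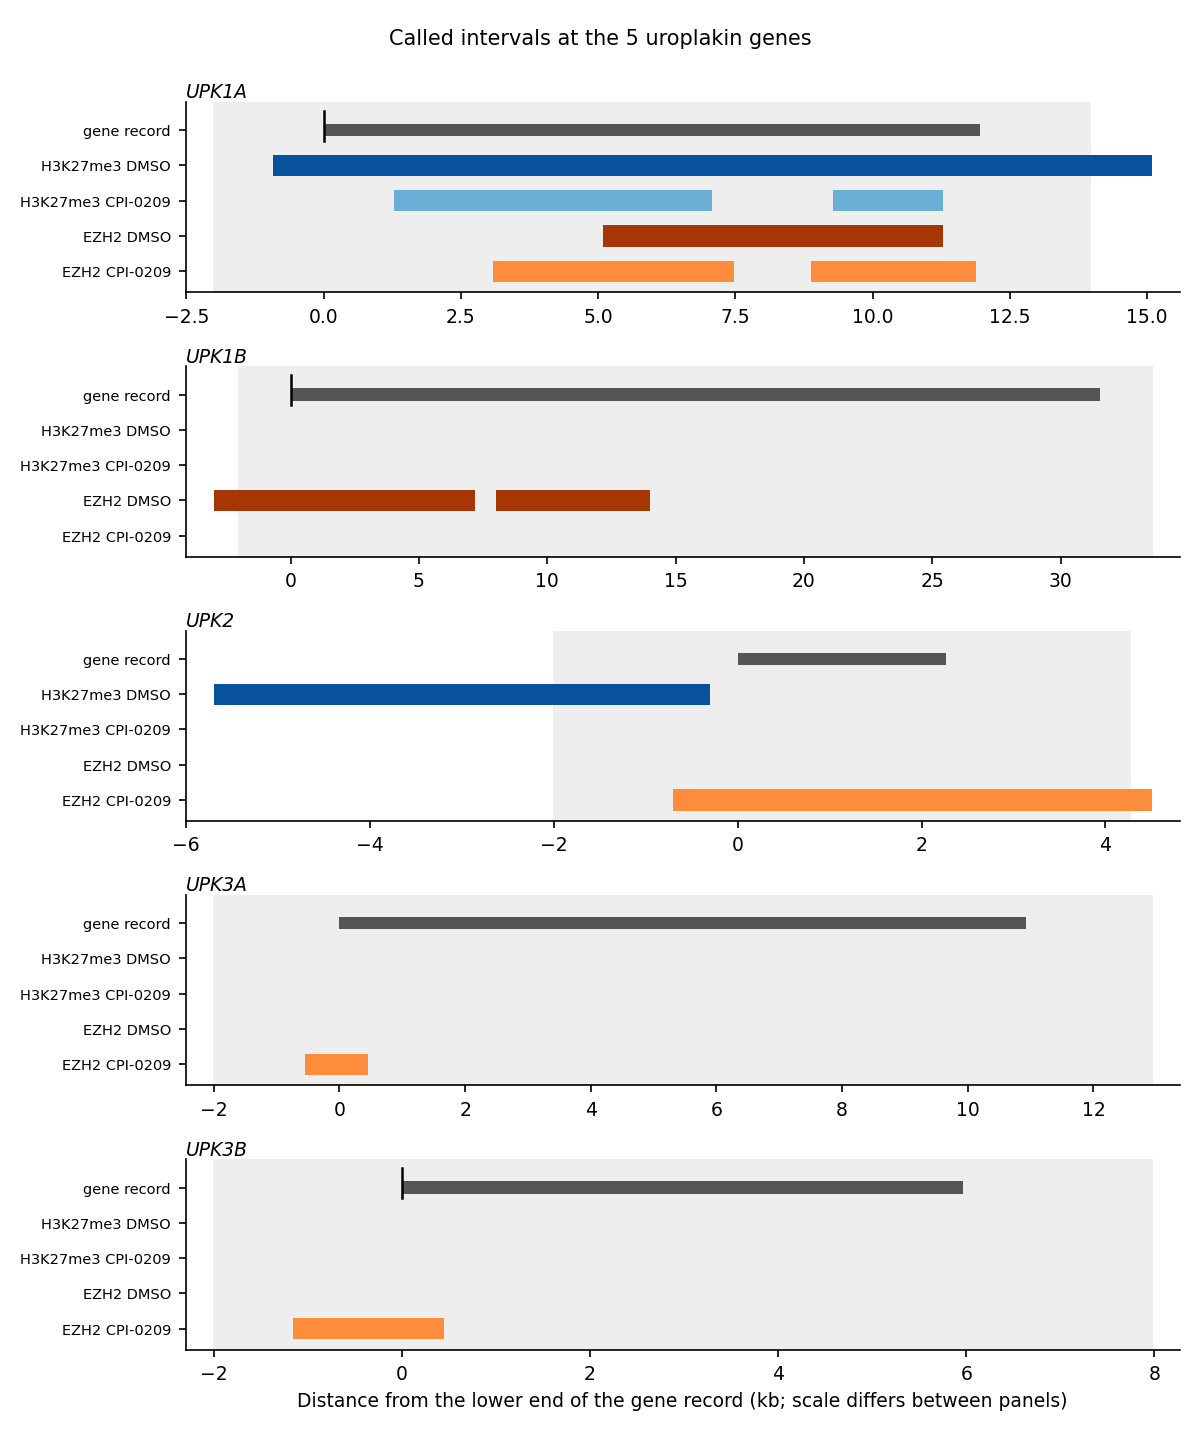
Called intervals (merged) at the 5 uroplakin genes, by distance in kb from the lower end of the gene record; the dark bar is the record, a black tick a RefSeq start, the grey area the window, and each coloured row 1 library. UPK1A carried H3K27me3 in both conditions (16.0 kb in DMSO, pieces of 5.80 kb and 2.0 kb in CPI-0209), UPK1B had EZH2 in DMSO alone, and UPK2, UPK3A and UPK3B had EZH2 in CPI-0209 alone.

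PPARG, ELF3 and KLF5 shared one pattern, EZH2 in both conditions and H3K27me3 in neither. That combination was the most frequent among the 9 genes and was found at 30.1% of protein-coding genes. PPARG (gene 5468, chromosome 3, 12287368 to 12434344) had 1 EZH2 interval of 11.4 kb (12284001 to 12295400) in DMSO and 1 of 3.0 kb (12286601 to 12289600) in CPI-0209, the narrower one inside the wider. The record is 147.0 kb long, so coverage of the window was low, at 6.65% and 1.99%. RefSeq gives 6 starts for PPARG. The 3 outer ones, at the record's start and 1692 bp and 1702 bp into it, lay inside the EZH2 interval in both conditions, and the inner ones, 14399 bp, 14607 bp and 64049 bp into the record, lay outside in both. The nearest H3K27me3 interval was 175.4 kb (DMSO) or 280.8 kb (CPI-0209) away.

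ELF3 (gene 1999, chromosome 1, 202010587 to 202017183) had the widest EZH2 domain of the 9 genes. It measured 19.2 kb in DMSO (202006201 to 202025400) and 17.2 kb in CPI-0209 (202006801 to 202024000), and covered 100% of the window in both. Only 5.39% of protein-coding genes in DMSO and 5.94% in CPI-0209 had their whole window covered. Intervals of one list can overlap, with at most 2 over any position, and such doubly covered stretches made up 100% of the ELF3 window in DMSO and 17.0% in CPI-0209. Over the whole EZH2 lists they made up 17.8% of the merged length in DMSO and 50.8% in CPI-0209. The nearest H3K27me3 lay 58.4 kb (DMSO) and 62.2 kb (CPI-0209) away.

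KLF5 (gene 688, chromosome 13, 73054976 to 73077538) had 1 EZH2 domain of 8.60 kb in each condition, at different places. In DMSO it ran from 3225 bp to 11824 bp into the record (73058201 to 73066800), which took in the inner, CG-rich start 4029 bp into the record and left out the outer start. In CPI-0209 it ran from 575 bp before the record to 8024 bp into it (73054401 to 73063000) and took in both starts. The domains shared 4.8 kb, or 55.8% of each. KLF5 was also the gene of the 9 farthest from H3K27me3. The nearest interval was 535.3 kb (DMSO) and 1054.7 kb (CPI-0209) away, and 4.21% and 4.11% of protein-coding genes were at least that far from one. The medians over all protein-coding genes were 17.2 kb and 54.8 kb.

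GRHL3 (gene 57822, chromosome 1, 24319357 to 24364482) carried H3K27me3 in DMSO and not in CPI-0209. The DMSO interval of 10.4 kb (24320401 to 24330800, 21.2% of the window) began 1044 bp into the record. Of the RefSeq starts of GRHL3, the inner one, 3683 bp into the record, lay inside this interval and the outer one did not. In CPI-0209 the nearest H3K27me3 was 57.2 kb from the record. H3K27me3 in DMSO alone was found at 10.2% of protein-coding genes. EZH2 covered both starts in both conditions. In DMSO it was called from 24315401 to 24324600 (9.20 kb, 14.7% of the window) and shared 4.2 kb with H3K27me3. In CPI-0209 it was called in 3 pieces of 2.80 kb, 12.8 kb and 5.20 kb (37.5%), and the whole former H3K27me3 interval lay under the 12.8 kb piece (24319201 to 24332000). The order of EZH2 coverage turned when only doubly covered stretches were counted, at 12.7% of the window in DMSO and 9.36% in CPI-0209. With 100 kb on either side of the record, H3K27me3 covered 84.4 kb (DMSO) and 11.8 kb (CPI-0209). IFNLR1, a receptor chain for interferon lambda 132.1 kb below, had H3K27me3 over 68.8% and 36.7% of its window. STPG1, whose record overlaps that of GRHL3, and NIPAL3, 49.0 kb above, had none.

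**Figure D3:**
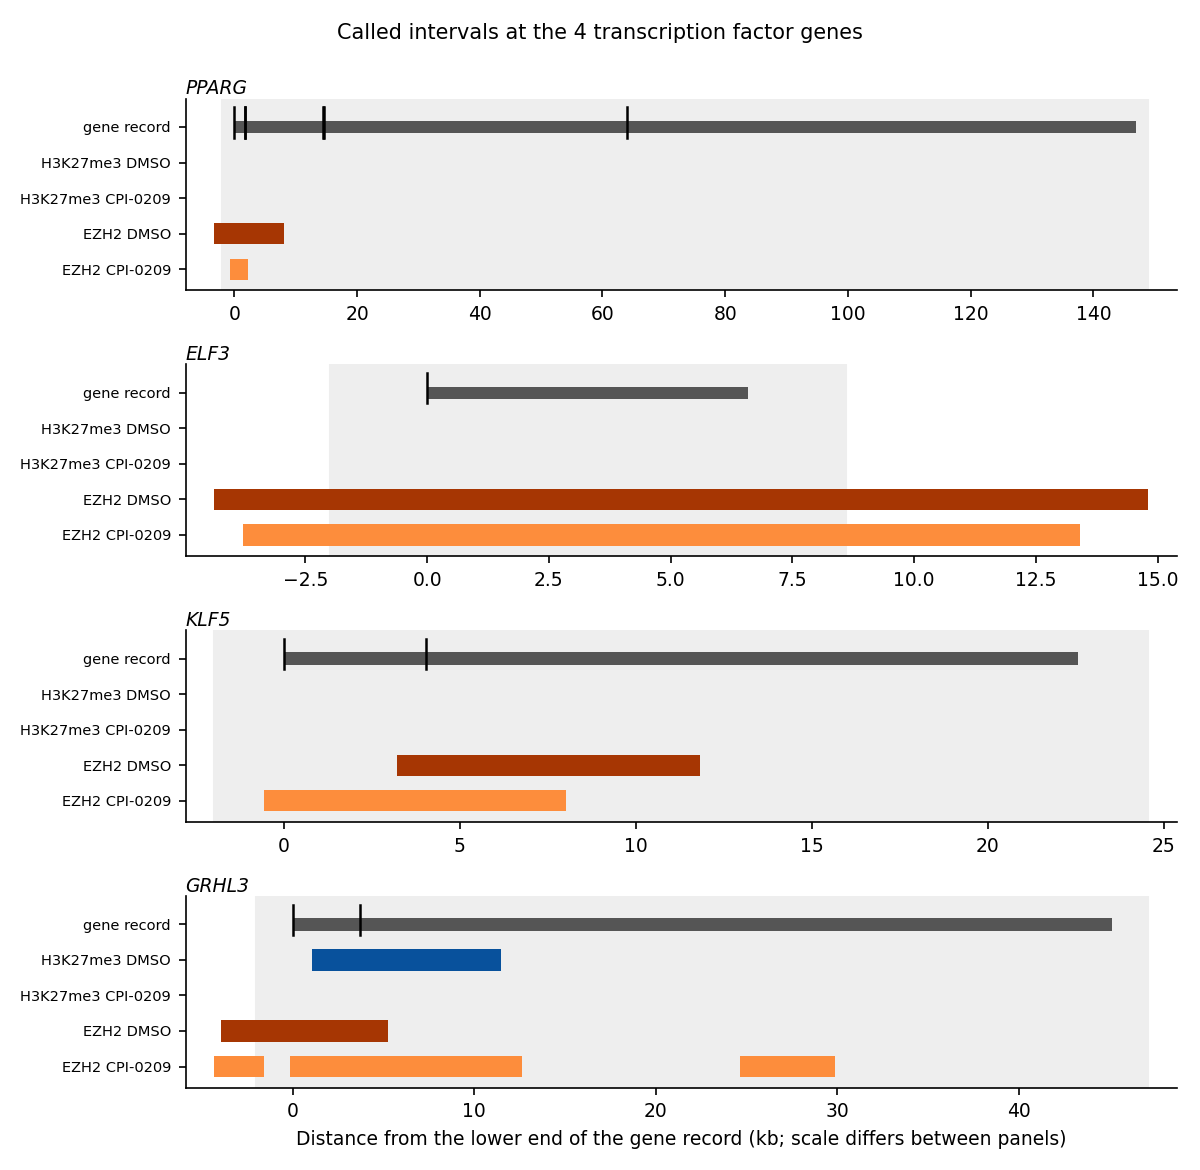
Called intervals (merged) at the 4 transcription factor genes, by distance in kb from the lower end of the gene record; the dark bar is the record, black ticks are RefSeq starts, the grey area is the window, and each coloured row is 1 library. EZH2 lay over at least 1 start of each gene in both conditions, and H3K27me3 was called at GRHL3 in DMSO alone.

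Calls at the starts of these genes were about as frequent as at other genes for EZH2 in CPI-0209 and for H3K27me3 in DMSO. Within 2 kb of a start, or of either record end where no start entry was found (UPK2 and UPK3A), H3K27me3 was called at 3 of the 9 genes in DMSO and 1 in CPI-0209, and EZH2 at 5 in DMSO and 7 in CPI-0209. The record-end rule was not applied to all protein-coding genes, so these counts have no share beside them. With start entries only, within 2 kb of a start H3K27me3 was called at 2 of the 7 genes with a start entry in DMSO (UPK1A and GRHL3) and at 1 in CPI-0209 (UPK1A), beside 25.4% and 18.1% of all protein-coding genes with an entry. EZH2 was called there at 5 of the 7 in DMSO and 5 in CPI-0209, beside 52.2% and 71.0%. The 5 were UPK1B, PPARG, ELF3, KLF5 and GRHL3 in DMSO, and UPK3B in place of UPK1B in CPI-0209. Counted by start, 8 of 14 had EZH2 within 2 kb in DMSO and 9 in CPI-0209, against 50.4% and 68.4% of all starts. For H3K27me3 it was 3 and 1, against 24.4% and 17.2%, and inside an interval 2 and 0, against 21.0% and 15.2%. For EZH2, 8 starts in DMSO and 9 in CPI-0209 also lay inside an interval, against 48.1% and 65.4% of all starts. Starts of one gene share intervals and are not separate events, and 6 of the 14 belong to PPARG.

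Most starts of these genes were poor in CG. The 13 starts below the median held between 1 and 11 CG in 300 bases, and the inner KLF5 start held 37. The highest count among these 13 was then taken as the limit of a CG-poor class, so the class was set by these starts. Among all protein-coding starts with at most 11 CG, 22.4% lay inside an EZH2 interval in DMSO and 28.7% in CPI-0209, and among those with more than 11 the shares were 60.9% and 83.7%. Of the 13 CG-poor starts of these genes, 7 lay inside an EZH2 interval in DMSO and 8 in CPI-0209, with UPK1B, PPARG, ELF3 and GRHL3 in DMSO and PPARG, ELF3, GRHL3, UPK3B and the outer KLF5 start in CPI-0209. In each condition 3 of them were PPARG starts under 1 interval, and both GRHL3 starts lay under 1 merged domain, so they are not separate events. Inside an H3K27me3 interval lay 24.2% of all CG-poor starts in DMSO and 11.8% in CPI-0209, and of the 13, 2 in DMSO and 0 in CPI-0209.

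**Figure D4:**
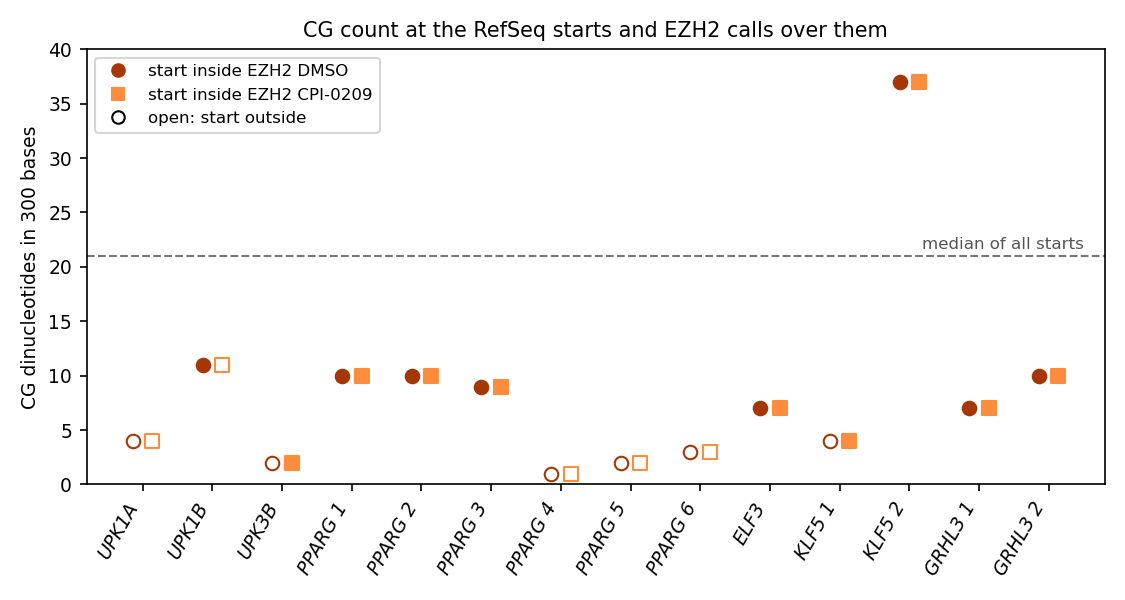
Number of CG dinucleotides in the 300-base RefSeq window at each of the 14 starts of 7 genes (numbers after a symbol count its starts from the lower end); filled circles and squares mark starts inside an EZH2 interval in DMSO and CPI-0209, open ones starts outside, and the dashed line is the median of 22132 starts. The inner KLF5 start, with 37 CG, is the only one above the median of 21.

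The promoter windows were also searched on both strands for short motifs of urothelial factors and for the TATA box, TATAAA. None of these contains another. The KLF-type CCACCC was present at 5 of the 14 starts, in UPK1A, UPK3B, PPARG and GRHL3, and in 37.7% of all windows. The ETS-type AGGAAG was present at 7, in the same 4 genes, and in 33.5% of all. The GATA-type AGATAA was found at 2 starts, 1 of PPARG and the outer one of GRHL3, against 7.88% of all. TATAAA was found at 5 starts, in UPK1A, PPARG, ELF3 and KLF5, and in 9.46% of all. The match began 34 bases before the start at ELF3 and 194 bases before it at UPK1A and the outer KLF5 start. At PPARG a single site lay 22 bases before the second start and 32 bases before the third. It read TTTATA on the strand of the gene, so TATAAA lay on the opposite strand there, unlike at ELF3, UPK1A and KLF5. The FOXA-type TGTTTAC (2.85% of all), the grainyhead-type AACCGGTT (0.167%) and the direct repeat bound by PPAR and RXR, known as DR1 (0.0226%), had no match in the 14 windows. The second and the third PPARG start lie 10 bases apart and hold the same matches.

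The other genes of urothelial differentiation were taken as a list of 39, among them FOXA1, GATA3, KRT20, the tight-junction claudins and ERBB2. Of these, 13 had H3K27me3 in DMSO, the same share as for the 9 genes, and all 13 were also called in CPI-0209. Among the 9 genes, 2 of the 3 with H3K27me3 in DMSO had none in CPI-0209. Over all protein-coding genes 29.8% of those with H3K27me3 in DMSO had none in CPI-0209. The difference was not tested, since the lists were chosen with results known. By coverage the leading ones were FOXA1, a pioneer factor of luminal cells (100% of the window in DMSO and 91.2% in CPI-0209), SHH, the hedgehog ligand (100% and 92.7%), TBX2, a T-box repressor (100% and 100%), VSIG2 (100% and 77.2%), TMPRSS2, a membrane serine protease (93.1% and 68.1%), and CRTAC1 (61.7% and 18.7%). Their widest H3K27me3 domains in DMSO measured 22.6 kb at FOXA1, 61.4 kb at SHH, 49.2 kb at TBX2, 58.4 kb at VSIG2, 40.6 kb at TMPRSS2 and 36.4 kb at CRTAC1. Over all 13 the widest domain ranged from 4.8 kb to 61.4 kb, and the domains at UPK1A, UPK2 and GRHL3, at 16.0 kb, 5.40 kb and 10.4 kb, lay within that range. EZH2 was called in DMSO at 12 of the 13 other genes with H3K27me3 and at 2 of the 3 here, all but UPK2. Over all protein-coding genes it was called at 5237 of the 6828 with H3K27me3 in DMSO. EZH2 was called at 30 of the 39 in DMSO and 34 in CPI-0209, against 58.8% and 75.1% of all protein-coding genes. Its median coverage over the 39 was 49.6% and 61.3%, against 3.71% and 6.97% over all protein-coding genes. The pattern of PPARG, ELF3 and KLF5 was shared by 18 of the 39, that of UPK1A by 12 and that of UPK3A and UPK3B by 3. Over all protein-coding genes these patterns were found, in that order, at 30.1%, 21.8% and 14.0%. The patterns of UPK1B, UPK2 and GRHL3 were found at 2.07%, 2.83% and 3.98% of all protein-coding genes, and each at 0 of the 39. Whether 0 is fewer than the background would give was not tested.

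Basal and squamous genes, the opposite pole of urothelial identity, gave 6 of 24 with H3K27me3 in DMSO and 1 in CPI-0209, against 34.2% and 24.5% of all protein-coding genes. The leading ones were the keratin genes KRT6B (100% of the window in DMSO) and KRT6C (94.7%) and S100A7, which encodes psoriasin (90.5%), all at 0% in CPI-0209. These keratin genes are near-identical neighbours in one cluster, where the placing of reads is uncertain. EZH2 was called at 13 of the 24 in each condition, against 58.8% and 75.1%.

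**Figure D5:**
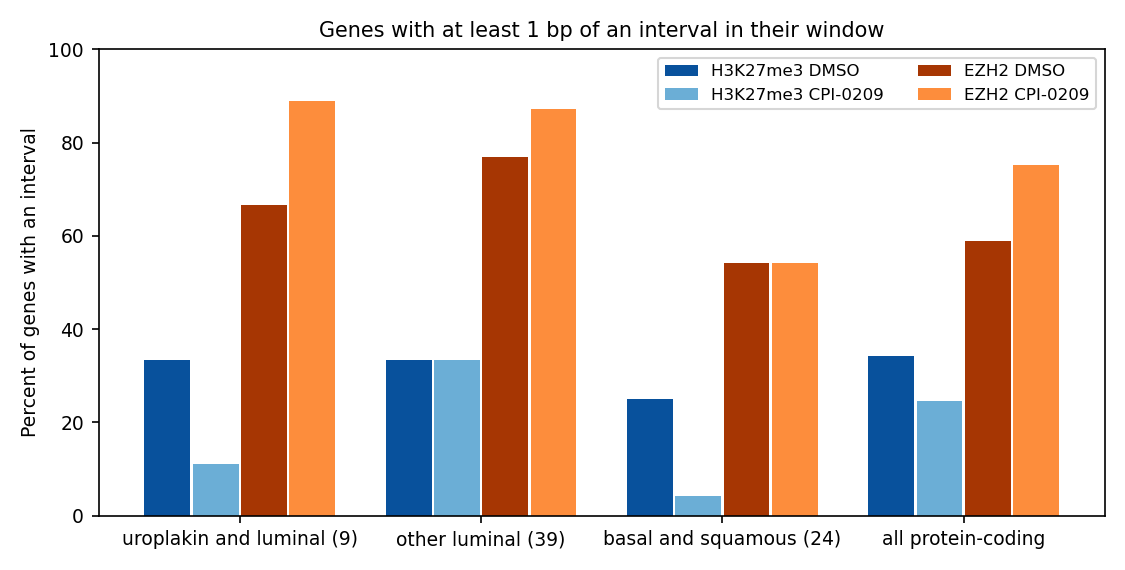
Percent of genes with at least 1 bp of an interval in their window, for the 9 uroplakin and luminal genes, 39 other luminal genes, 24 basal and squamous genes and all protein-coding genes; each bar is 1 library, so there are no error bars. H3K27me3 was called at 33.3% of the 9 genes in DMSO and 11.1% in CPI-0209, and at 33.3% of the other luminal genes in both.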

How the data were processed

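ChIP-seq libraries for EZH2 and H3K27me3 from HT1376 cells given DMSO or CPI-0209 were used, 1 per group. Each deposited list holds the chromosome, start and end of called intervals, per the file headers, and no score, count or p-value. The authors' processing notes name BWA, SICER and hg38 but neither versions nor settings. Use of the input as a control is likewise not stated. Starts and widths were checked to be multiples of 200 bp. Coordinates are printed counting from 1. Overlapping or touching intervals were merged, and coverage was computed in Python 3.11.15 with numpy 2.4.6 and pandas 2.3.3, and tested on simulated intervals. Genes, starts and promoter sequences came from RefSeq tables of GRCh38.p14, the assembly of hg38. No exon table was used, so exons and introns were not told apart.

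The 9 genes and the comparison lists were chosen with earlier results of these data known. Named genes were all 9, the 6 other luminal genes and the 3 of each further list with the highest H3K27me3 coverage in DMSO, and the nearest neighbours of genes with H3K27me3. UPK3BL1 and STPG1 were named beside them as a copy and an overlapping gene. With 1 library per group no test was made. Flank, minimum coverage, doubly covered stretches, shortened lists, gap joining and start window were varied.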

Additional observations from a re-analysis of the deposited data

How the results depend on the processing

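The share of all protein-coding genes was not computed for doubly covered stretches, minimum coverage, shortened lists, 10 kb flanks or the narrower start window. Counts under these settings therefore have no background beside them. With doubly covered stretches only, H3K27me3 was called at 1 gene in DMSO (UPK1A) and 0 in CPI-0209, and EZH2 at 3 in DMSO and 3 in CPI-0209 (ELF3, KLF5 and GRHL3 in both). With at least 50% of the window covered, the counts were 1 and 0 for H3K27me3 and 1 and 2 for EZH2. Shortened to the length of the CPI-0209 list by its widest intervals, the H3K27me3 DMSO list called 0 of the 9; it then holds no interval under 33.2 kb, wider than any domain at these genes. The EZH2 CPI-0209 list shortened in the same way called 5, without UPK3A, UPK3B and PPARG. Within 500 bp of a start, or of either record end for UPK2 and UPK3A, H3K27me3 in CPI-0209 was called at 0 genes. With no flank, at least 10% coverage or 10 kb flanks each count was within 1.5 times the one reported; without flank UPK2 was not among those with H3K27me3 in DMSO.

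Mean coverage over the 9 genes was 15.7% (DMSO) and 5.43% (CPI-0209) for H3K27me3, then 26.2% and 35.6% for EZH2. In that order, with no flank these were 13.7%, 7.24%, 27.7% and 38.9%, with 10 kb flanks 11.1%, 2.71%, 18.2% and 19.4%, and over doubly covered stretches 10.2%, 0%, 14.4% and 5.02%, so the order of the EZH2 means turned there. Joining gaps under 5 kb gave a median widest domain of 10.0 kb for H3K27me3 CPI-0209 (the 1 gene called), 10.3 kb for EZH2 DMSO and 6.90 kb for EZH2 CPI-0209, against 5.80 kb, 9.70 kb and 4.8 kb without joining. Of 12 differences between conditions at single genes, 8 were 0 over doubly covered stretches, all but H3K27me3 at UPK1A and EZH2 at ELF3, KLF5 and GRHL3. EZH2 at ELF3 then differed by -83.0 percentage points, against 0 in the whole window coverage. The sign turned for 1: EZH2 at GRHL3, CPI-0209 minus DMSO, was -3.35 percentage points over doubly covered stretches. The causes were not tested. No paired analysis was possible because each group is 1 library. Depth is unknown and sets which narrow intervals could be called.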

Other observations

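Genes downstream of PPARG and of lipid handling were taken as a list of 15 that overlaps the list of other luminal genes. H3K27me3 was called at 5 of the 15 in DMSO, beside 34.2% of all protein-coding genes, so the share lay close to the background. Of all protein-coding genes called in DMSO 29.8% had no call in CPI-0209, while the same 5 of this list were called there. The leading ones were FABP5, a fatty acid binding protein (43.7% of the window in DMSO and 34.0% in CPI-0209), TBX3, a T-box repressor (38.6% and 15.5%), and RXRB, a partner of PPARG (26.7% and 28.5%). RXRA and FABP4 are added here after their values were seen. RXRA, another partner of PPARG, had no H3K27me3 and had EZH2 over 65.0% of its window in DMSO and 98.5% in CPI-0209. FABP4, a known PPARG target, had no interval in any of the 4 lists.

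Markers of stromal and immune cells, cells a carcinoma line should not contain, gave 5 of 14 with H3K27me3 in DMSO and 4 in CPI-0209. COL1A1, a fibrillar collagen, had 100% of its window covered in DMSO and 74.5% in CPI-0209, PECAM1, an endothelial adhesion molecule, 95.8% and 36.9%, and CD3E, a T cell receptor chain, 50.3% and 0%. CD3E was thus in the same class as UPK2, with EZH2 over 43.9% of its window in CPI-0209 and none in DMSO. For all protein-coding genes the share with H3K27me3 was 34.2% (DMSO, exact Clopper-Pearson 95% interval from 33.5 to 34.8) and 24.5% (CPI-0209, from 23.9 to 25.1); these intervals cover counting error only.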
